A study of Mus musculus with 17 samples.

Results

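The D-type cyclins, the kinases they switch on and the pocket proteins that those kinases inactivate were followed across islets in which Men1, Rbp2 or both genes had been deleted in beta cells. The set is Ccnd1, Ccnd2, Ccnd3, Cdk4, Cdk6, Rb1, Rbl1 and Rbl2, taken as the probe sets whose annotation names exactly 1 of these symbols. Each of the 8 genes had 1 such probe set, out of 21789 probe sets that name a single gene and 35512 in all, and 19938 genes were tested. Expression had been measured on 17 Affymetrix whole-transcript arrays of pancreatic islets from untreated 2-month-old mice, with log2 intensity as the deposited unit. The groups are wild-type mice (wt, 3 arrays), mice with the RIP-Cre transgene alone (RIP-Cre, 3 arrays), Men1flf RIP-Cre mice (3 arrays, called the Men1 knockout), Rbp2flf RIP-Cre mice (4 arrays, the Rbp2 knockout) and Men1flf Rbp2flf RIP-Cre mice (4 arrays, the double knockout). RIP-Cre makes Cre recombinase from the rat insulin promoter, so recombination is directed to beta cells and the other cells of an islet keep their floxed genes. Every knockout array therefore carries the transgene, and RIP-Cre is the control used for them. The labels give each array a repeat number but do not say whether repeats are different animals, so the p-values reflect only array-to-array spread, which may be technical.

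In the G1 phase of the cell cycle a D-type cyclin binds CDK4 or CDK6, and the active pair phosphorylates the retinoblastoma protein and its relatives p107 and p130. Phosphorylated pocket proteins release E2F transcription factors, and the genes for DNA replication are then transcribed. In beta cells cyclin D2 and CDK4 are the members best known for supporting postnatal growth of the cell mass, and menin, the product of Men1, is known as a tumour suppressor of endocrine cells that acts with histone H3 lysine 4 methyltransferases. Rbp2, whose gene is now named Kdm5a, is a demethylase of the same mark and was isolated as a protein that binds the retinoblastoma protein.

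The sequences just before the start sites of 2 members are shown because their letters hold binding motifs of factors tied to this pathway, the E-box of Myc-type factors and the E2F motif. Both are the 250 bases before the start, 5′ to 3′ on the gene's own strand, from RefSeq (GRCm38.p6). A window was found for 5 of the 8 members. Capitals mark CACGTG in Cdk4 (chr10:127063285-127063534, plus strand) and TTTCGCGC in Rbl1 (chr2:157204535-157204784, minus strand).
Cdk4: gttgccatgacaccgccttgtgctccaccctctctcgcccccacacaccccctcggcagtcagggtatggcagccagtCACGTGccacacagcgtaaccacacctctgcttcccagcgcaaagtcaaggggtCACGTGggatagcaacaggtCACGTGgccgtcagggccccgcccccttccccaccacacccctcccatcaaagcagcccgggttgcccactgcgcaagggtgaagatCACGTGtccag
Rbl1: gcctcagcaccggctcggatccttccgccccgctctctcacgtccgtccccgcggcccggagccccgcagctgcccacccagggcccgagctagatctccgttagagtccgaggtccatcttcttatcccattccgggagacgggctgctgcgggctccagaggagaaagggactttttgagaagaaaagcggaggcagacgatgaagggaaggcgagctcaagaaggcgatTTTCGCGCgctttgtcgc
The Cdk4 window held 4 copies of CACGTG, starting 172, 118, 98 and 11 bases before the start, where 6.02% of 32851 windows of that length held at least 1. The Rbl1 window held 1 E2F motif, 18 bases before the start. The letters searched for E2F were TTTCCCGC, TTTCGCGC, TTTGCCGC and TTTGGCGC on either strand, and 1.86% of the windows held any of them. The windows of Ccnd3, Cdk6 and Rbl2 had no E2F match, and Cdk6 had 1 CACGTG, 220 bases before its start. A match describes letters in a window and does not show that a factor was bound there.

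The arrays as a whole bear on how the members are read. Array medians over the genes lay between 7.97 and 8.16 in the control groups and between 7.82 and 7.98 in the 3 knockout groups. Against RIP-Cre, the median over all genes of the log2 fold change was -0.23 in the Men1 knockout, -0.13 in the Rbp2 knockout and -0.15 in the double knockout, while among the brightest 10% of genes it was 0.20, 0.18 and 0.21. Each member is therefore given beside the median of the 200 genes nearest to it in level, and again after cyclic loess normalization, which brings the medians of all genes to -0.05, -0.03 and -0.03. Men1 was lower than RIP-Cre in the Men1 knockout (log2 fold change -1.06, limma adjusted p = 3.08e-05) and in the double knockout (-0.77, adjusted p = 0.000558), and was higher in the Rbp2 knockout (0.73, adjusted p = 0.00359). Kdm5a did not pass the test in the Rbp2 knockout (-0.22, adjusted p = 0.148) or in the double knockout (-0.02, adjusted p = 0.896). Where the Kdm5a probes lie relative to the deleted part is not given in the sources used here, so this probe set does not check the Rbp2 labels. The hormone genes that define islets were bright in every group, with group means of 13.58 to 13.70 for Ins2 and 13.31 to 13.70 for Gcg.

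The test was limma's, with p-values adjusted by Benjamini-Hochberg over all genes of a comparison, and a gene counted as called below 0.05. Against RIP-Cre, 5 of the 8 members were called in the Men1 knockout, 4 higher and 1 lower, and all genes were called at 53.5% (15.7% higher and 37.8% lower). In the Rbp2 knockout 3 members were called, all higher, where all genes were called at 13.4% (6.7% higher). In the double knockout 5 members were called, all higher, against 33.7% of all genes (13% higher and 20.6% lower). After cyclic loess normalization the members called were Ccnd1, Rb1 and Rbl2 in the Men1 knockout, Ccnd1, Ccnd2 and Rb1 in the Rbp2 knockout and Ccnd1, Rb1 and Rbl2 in the double knockout, with all genes called at 36.1%, 9.38% and 25.7%. The split of all genes then was 17.6% higher and 18.4% lower in the Men1 knockout, 5.52% and 3.87% in the Rbp2 knockout, and 13.4% and 12.3% in the double knockout. The 3 comparisons share their RIP-Cre arrays and are not independent of each other. In bulk islets, fewer cells of a type and less RNA per cell cannot be told apart.

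**Figure D1:**
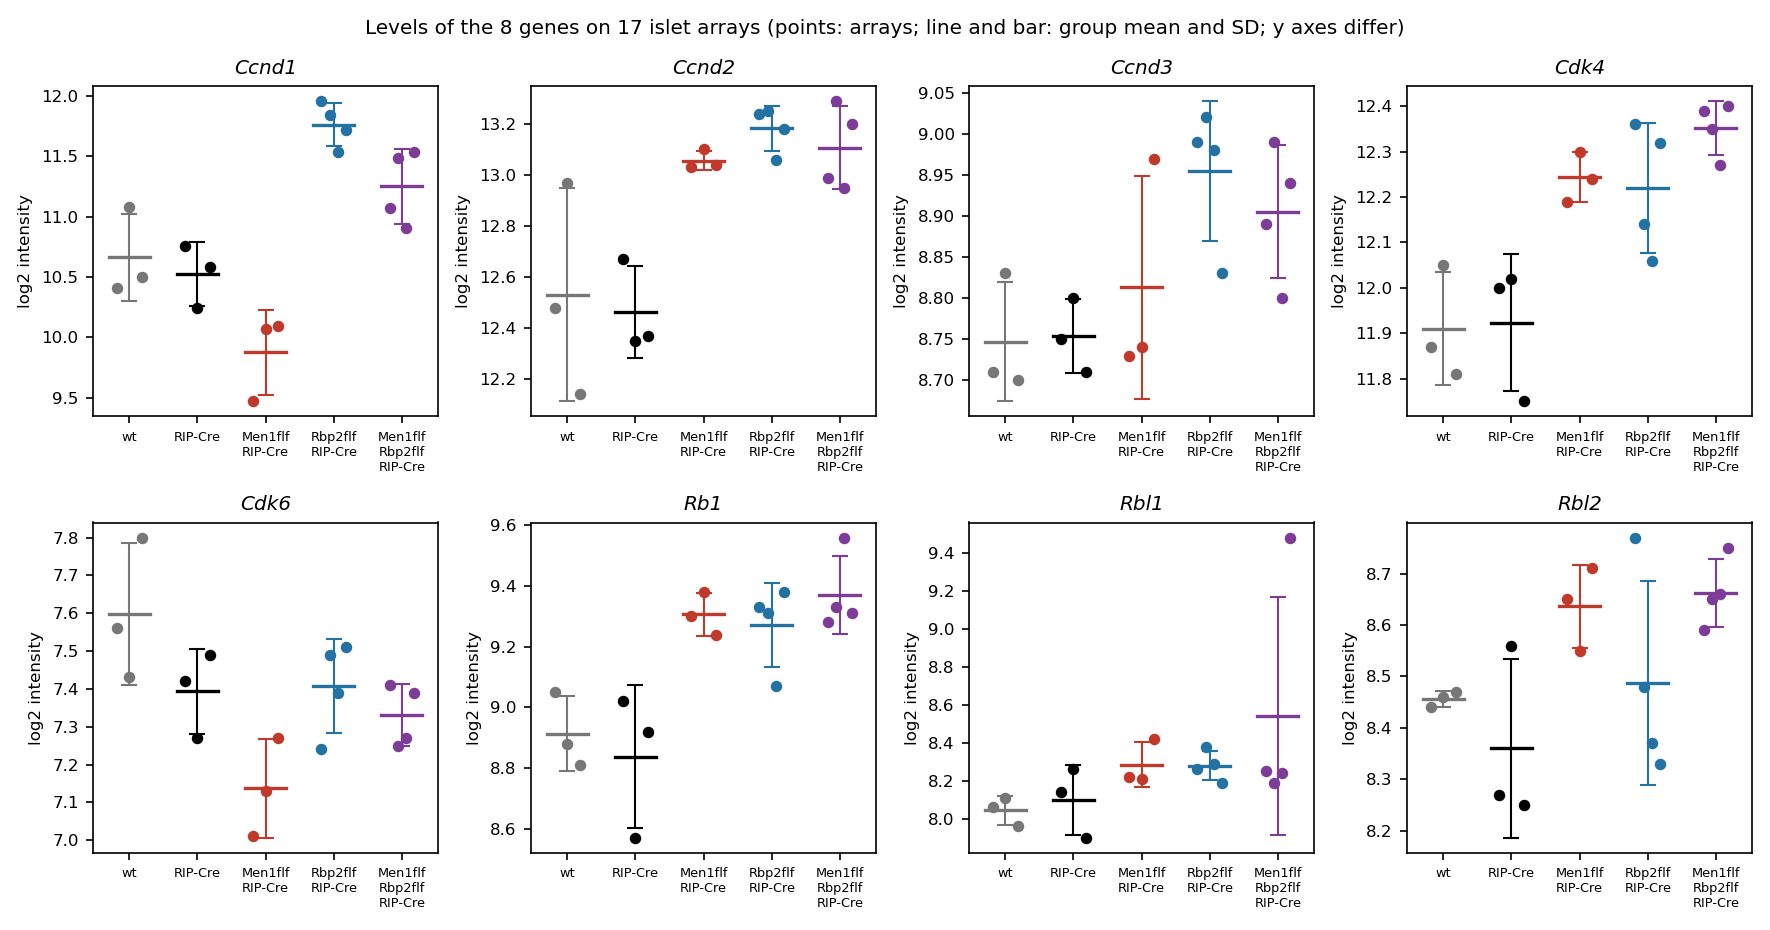
Log2 intensity of each of the 8 genes (y axis, scaled per panel) in the 5 genotype groups (x axis), with each array as a point, the group mean as a line and 1 SD as the bar. Ccnd1 is lowest in the Men1 knockout (9.47 to 10.09) and highest in the Rbp2 knockout (11.54 to 11.96), and Rbl1 has 1 array of the double knockout at 9.48.

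Among the cyclins, Ccnd1 moved in opposite directions in the single knockouts. Cyclin D1 is the member whose transcription is most often tied to growth factor signals. Its log2 level was 10.76, 10.24 and 10.58 in the 3 RIP-Cre arrays and 10.41, 11.08 and 10.50 in the 3 wt arrays. In the Men1 knockout it was 9.47, 10.07 and 10.09, in the Rbp2 knockout 11.96, 11.84, 11.54 and 11.72, and in the double knockout 11.07, 11.49, 10.91 and 11.54. All 3 Men1 knockout arrays lay below every control array and all 4 Rbp2 knockout arrays lay above every control array. The double knockout lay above all RIP-Cre arrays, but its lowest array was under the highest wt array. Against RIP-Cre alone, 44.8% of all genes lay wholly lower in the Men1 knockout. Wholly higher were 11.6% in the Rbp2 knockout and 14.2% in the double knockout. The share of all genes lying apart from both control groups was not counted.

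Against RIP-Cre, Ccnd1 fell by 0.65 on the log2 scale in the Men1 knockout (SE 0.22, limma adjusted p = 0.0202), a level 0.637 times that of the control. It rose by 1.24 in the Rbp2 knockout (SE 0.20, adjusted p = 0.00618), 2.36 times the control, and by 0.73 in the double knockout (SE 0.20, adjusted p = 0.0150), 1.65 times the control. The 200 genes nearest to Ccnd1 in level had medians of 0.20, 0.17 and 0.21 in these comparisons, so Ccnd1 stood on the other side of them in the Men1 knockout. After cyclic loess the values were -0.88, 1.02 and 0.49, with adjusted p of 0.00237, 0.00711 and 0.0490.

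Between the double and the Men1 knockout Ccnd1 differed by 1.38 (SE 0.20, limma adjusted p = 0.00142), 2.60 times the Men1 knockout level. It was the only one of the 8 members called in that comparison, where 1.67% of all genes were called, 1.1% higher in the double knockout. After cyclic loess it was again the only one, at 1.37 (adjusted p = 0.000396), with 2.33% of all genes called. The double knockout lay 0.51 below the Rbp2 knockout (95% interval -0.91 to -0.12, adjusted p = 0.245), and no member was called there, with 1.2% of all genes called.

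The interaction sets the difference between double and Men1 knockout against that between Rbp2 knockout and RIP-Cre. It was 0.14 for Ccnd1 (95% interval -0.47 to 0.74, limma adjusted p = 0.726). None of the 8 members had a called interaction, and 3.39% of all genes did. On the deposited scale the Rbp2 effect on Ccnd1 was thus measured as 1.24 without and 1.38 with the Men1 deletion. The test did not separate these values, and its interval still allows a difference of up to 0.74. The 200 genes nearest in level had a median interaction of -0.165. After cyclic loess the Rbp2 effect was 1.02 without and 1.37 with the Men1 deletion. The interaction was then 0.34 (SE 0.25, limma adjusted p = 0.380).

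Single arrays carried some of the Ccnd1 calls. The lower level in the Men1 knockout was no longer called without RIP-Cre replicate 1 (-0.53, limma adjusted p = 0.0732), without RIP-Cre replicate 3 (-0.62, adjusted p = 0.0650) or without Men1 knockout replicate 1 (-0.45, adjusted p = 0.110). The higher level in the double knockout was not called without RIP-Cre replicate 2 (0.58, adjusted p = 0.0513) or without double knockout replicate 4 (0.63, adjusted p = 0.05001). The rise in the Rbp2 knockout and the difference between the double and the Men1 knockout were called with any of the 17 arrays left out.

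Ccnd2, which codes for cyclin D2, was higher in all 3 knockouts. Its log2 level was 12.67, 12.35 and 12.37 in RIP-Cre and 12.48, 12.97 and 12.14 in wt. It was 13.03, 13.10 and 13.04 in the Men1 knockout, 13.24, 13.25, 13.06 and 13.18 in the Rbp2 knockout, and 12.99, 13.29, 12.95 and 13.20 in the double knockout. No knockout array overlapped the RIP-Cre arrays, although 1 wt array at 12.97 reached the lower end of the double knockout. Of all genes, 18.7%, 11.6% and 14.2% lay wholly above RIP-Cre in the Men1, Rbp2 and double knockout. The knockout groups overlapped each other throughout.

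Against RIP-Cre, Ccnd2 rose by 0.59 in the Men1 knockout (SE 0.16, limma adjusted p = 0.00738), by 0.72 in the Rbp2 knockout (SE 0.15, adjusted p = 0.0146) and by 0.64 in the double knockout (SE 0.15, adjusted p = 0.00686). Genes of like brightness moved the same way, with medians of 0.35, 0.38 and 0.41. After cyclic loess the values were 0.21, 0.35 and 0.24, and the call ended in the Men1 knockout (adjusted p = 0.0883) and in the double knockout (adjusted p = 0.0611) but not in the Rbp2 knockout (adjusted p = 0.0289). The interaction was -0.67 (95% interval -1.11 to -0.22, adjusted p = 0.0628), beside a median of -0.32 for the 200 genes nearest in level. After cyclic loess it was -0.33 (adjusted p = 0.122). Without RIP-Cre replicate 3 the Rbp2 knockout value was 0.67 and was not called (adjusted p = 0.0686).

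The balance of the 2 cyclins within an array was looked at after their values had been seen. The log2 difference Ccnd1 minus Ccnd2 ran from -2.11 to -1.79 in RIP-Cre and from -3.56 to -2.95 in the Men1 knockout, a change of -1.24. It ran from -1.52 to -1.28 in the Rbp2 knockout, a change of 0.52, and from -2.04 to -1.66 in the double knockout, a change of 0.08. The single knockouts did not overlap RIP-Cre and the double knockout did. An exact permutation test against RIP-Cre gave p = 0.1 in the Men1 knockout, 0.057 in the Rbp2 knockout and 0.63 in the double knockout. The smallest p possible was 0.1 for the Men1 knockout and 0.057 for the others, so this test could not reach 0.05.

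Ccnd3, which codes for cyclin D3, was not called in any comparison. It was 8.75, 8.80 and 8.71 in RIP-Cre, 8.71, 8.83 and 8.70 in wt, 8.73, 8.74 and 8.97 in the Men1 knockout, 8.99, 9.02, 8.98 and 8.83 in the Rbp2 knockout and 8.89, 8.99, 8.80 and 8.94 in the double knockout. Its widest difference was in the Rbp2 knockout, where all 4 arrays lay above all 3 RIP-Cre arrays and the log2 fold change was 0.20 (95% interval 0.02 to 0.38, limma adjusted p = 0.0968). All members whose arrays lay wholly above RIP-Cre were Ccnd2, Cdk4 and Rb1 in the Men1 knockout, Ccnd1, Ccnd2, Ccnd3, Cdk4 and Rb1 in the Rbp2 knockout, and Ccnd1, Ccnd2, Cdk4, Rb1 and Rbl2 in the double knockout. Over all genes this held for 18.7%, 11.6% and 14.2%, and in the Men1 knockout 44.8% of genes lay wholly below RIP-Cre, as Ccnd1 did.

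**Figure D2:**
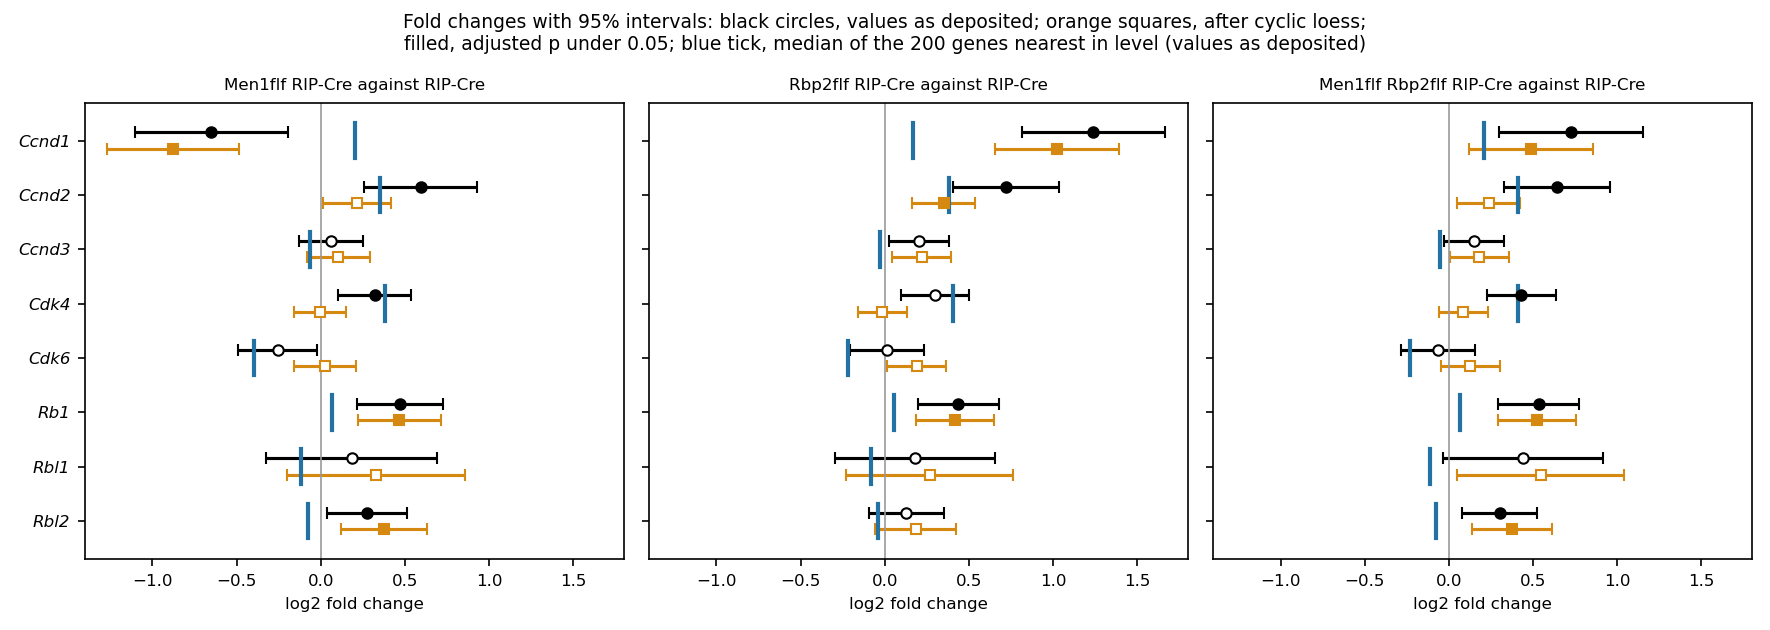
Log2 fold change of each gene against RIP-Cre (x axis) with its 95% interval in the 3 knockouts, as deposited (black circles) and after cyclic loess (orange squares), filled where the adjusted p is under 0.05, with a blue tick at the median of the 200 genes nearest in level. Rb1 lies between 0.42 and 0.53 under both scalings in all 3 panels, whereas Cdk4 moves from 0.32, 0.30 and 0.43 to values near 0.

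Of the kinases, Cdk4 was higher in the knockouts on the deposited scale and not after normalization. CDK4 is the main D-cyclin partner in beta cells. It was 12.00, 12.02 and 11.75 in RIP-Cre and 11.87, 12.05 and 11.81 in wt, and it was 12.19, 12.30 and 12.24 in the Men1 knockout. The Rbp2 knockout arrays were at 12.36, 12.14, 12.06 and 12.32, and the double knockout arrays at 12.39, 12.35, 12.27 and 12.40. Every knockout array lay above every control array. Against RIP-Cre alone, 18.7%, 11.6% and 14.2% of all genes lay wholly higher in the Men1, Rbp2 and double knockout. The share against both control groups was not counted. After cyclic loess each knockout group overlapped the wt arrays (12.02 to 12.20).

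The log2 fold change of Cdk4 against RIP-Cre was 0.32 in the Men1 knockout (SE 0.10, limma adjusted p = 0.0176), 0.30 in the Rbp2 knockout (SE 0.10, adjusted p = 0.0508) and 0.43 in the double knockout (SE 0.10, adjusted p = 0.00592). The 200 genes nearest in level had medians of 0.38, 0.41 and 0.41, so Cdk4 moved by about as much as other genes of its brightness. After cyclic loess the values were -0.0040, -0.016 and 0.08, the first 2 with the opposite sign, and none was called. Without RIP-Cre replicate 3 (0.23, adjusted p = 0.0962) or Men1 knockout replicate 2 (0.29, adjusted p = 0.0580) the Men1 knockout value was not called on the deposited scale either.

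Cdk6, the other D-cyclin kinase, was dim and was called in no comparison with RIP-Cre. It was 7.42, 7.27 and 7.49 in RIP-Cre, 7.56, 7.43 and 7.80 in wt and 7.01, 7.13 and 7.27 in the Men1 knockout. It was 7.24, 7.49, 7.39 and 7.51 in the Rbp2 knockout and 7.41, 7.25, 7.27 and 7.39 in the double knockout. The Men1 knockout was the lowest group, and its highest array equalled the lowest RIP-Cre array. The log2 fold change there was -0.26 (SE 0.11, limma adjusted p = 0.0598), beside a median of -0.40 for the 200 nearest genes, and it was 0.02 after cyclic loess.

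**Figure D3:**
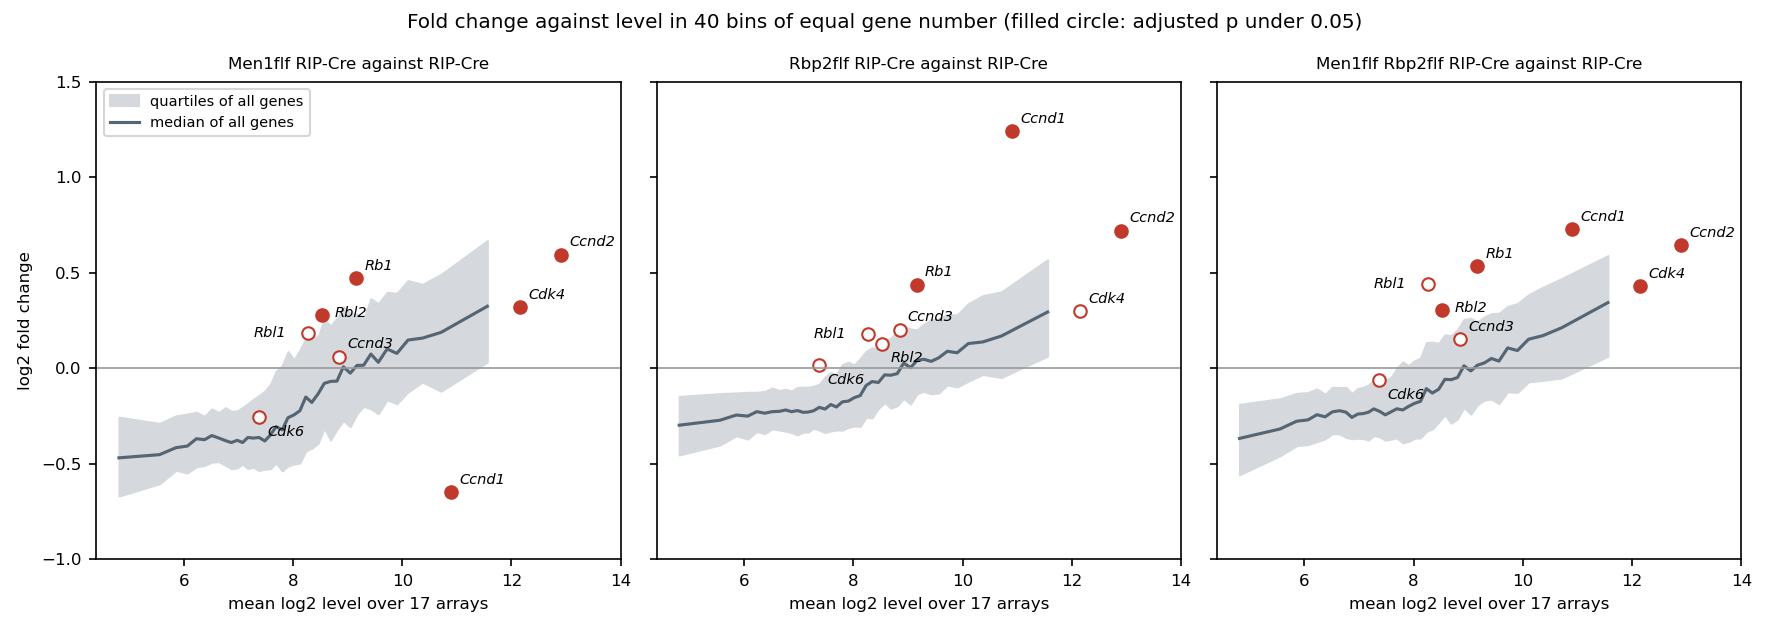
Log2 fold change against RIP-Cre (y axis) by mean log2 level over the 17 arrays (x axis) in each knockout, with the median (line) and quartiles (band) of all genes in 40 bins and the 8 genes as circles, filled where the adjusted p is under 0.05. The median of all genes rises with level in all 3 panels. Ccnd1 lies below the band in the Men1 knockout and above it in the Rbp2 knockout and the double knockout, and Rb1 lies above it in all 3.

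Among the pocket proteins Rb1 rose in all 3 knockouts, and under both scalings. Rb1 codes for the retinoblastoma protein, the main substrate of the D-cyclin kinases. Its log2 level was 9.02, 8.57 and 8.92 in RIP-Cre and 9.05, 8.88 and 8.81 in wt. The Men1 knockout arrays were at 9.30, 9.38 and 9.24, the Rbp2 knockout arrays at 9.33, 9.31, 9.07 and 9.38, and the double knockout arrays at 9.28, 9.33, 9.56 and 9.31. All 11 knockout arrays lay above all 6 control arrays, and the 3 knockout groups overlapped. The share of all genes for which this held was not counted. Against RIP-Cre alone it was 18.7%, 11.6% and 14.2% in the Men1, Rbp2 and double knockout.

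Against RIP-Cre the log2 fold change of Rb1 was 0.47 in the Men1 knockout (SE 0.12, limma adjusted p = 0.00617), 0.44 in the Rbp2 knockout (SE 0.11, adjusted p = 0.0274) and 0.53 in the double knockout (SE 0.11, adjusted p = 0.00482). Genes of like brightness had medians of 0.07, 0.05 and 0.06. After cyclic loess the values were 0.47, 0.42 and 0.52, with adjusted p of 0.00649, 0.0315 and 0.00451. The calls in the Men1 knockout and the double knockout held with any of the 17 arrays left out. In the Rbp2 knockout the call ended without RIP-Cre replicate 2 (0.30, adjusted p = 0.0657), RIP-Cre replicate 3 (0.48, adjusted p = 0.0822), Rbp2 knockout replicate 1 (0.42, adjusted p = 0.0792) or Rbp2 knockout replicate 2 (0.42, adjusted p = 0.0591).

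In the double knockout the mean Rb1 level lay within 0.10 of either single knockout. The interaction was -0.37 (95% interval -0.71 to -0.03, limma adjusted p = 0.113) and was not called. Rb1 differed by 0.06 between the double and the Men1 knockout (95% interval -0.18 to 0.30) and by 0.10 between the double and the Rbp2 knockout (95% interval -0.13 to 0.32).

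Rbl2 codes for p130, the pocket protein typical of resting cells. It was 8.27, 8.56 and 8.25 in RIP-Cre, 8.44, 8.46 and 8.47 in wt, 8.65, 8.55 and 8.71 in the Men1 knockout, 8.77, 8.48, 8.37 and 8.33 in the Rbp2 knockout and 8.59, 8.65, 8.66 and 8.75 in the double knockout. The double knockout arrays lay above all 6 control arrays, while the Men1 knockout overlapped RIP-Cre replicate 2 and the Rbp2 knockout overlapped both control groups. In the double knockout 14.2% of all genes lay wholly above RIP-Cre, and the share against both control groups was not counted. Against RIP-Cre Rbl2 rose by 0.28 in the Men1 knockout (SE 0.11, limma adjusted p = 0.0480) and by 0.30 in the double knockout (SE 0.11, adjusted p = 0.0374), and was at 0.13 in the Rbp2 knockout (adjusted p = 0.368). The Men1 knockout call was close to the threshold and ended under 14 of the 17 arrays left out in turn, for example at 0.22 without RIP-Cre replicate 3 (adjusted p = 0.167). The double knockout call ended under 5 of them, RIP-Cre replicates 1 and 3 and double knockout replicates 2, 3 and 4, with adjusted p up to 0.160. After cyclic loess the values were 0.38 and 0.37, both called (adjusted p = 0.0244 and 0.0248).

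Rbl1, which codes for p107 and is itself a textbook E2F target, was not called in any comparison. It was 8.14, 8.26 and 7.90 in RIP-Cre, 8.06, 8.11 and 7.96 in wt, 8.22, 8.21 and 8.42 in the Men1 knockout and 8.26, 8.38, 8.29 and 8.19 in the Rbp2 knockout. In the double knockout it was 8.25, 8.19, 8.24 and 9.48. The last array stood apart from the other 16, which lay between 7.90 and 8.42, and the group's SD with it was 0.627. The log2 fold change in the double knockout was 0.44 with it (limma adjusted p = 0.129) and 0.13 without it.

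The order of the groups, from the lowest to the highest mean, differed between members. For Ccnd1 it was the Men1 knockout, RIP-Cre, wt, the double knockout and the Rbp2 knockout, and only the step from the Men1 knockout to RIP-Cre was free of overlap between neighbours. For Ccnd2 and Rb1 both control groups came first, and only the step from wt to the lowest knockout group was free of overlap. For Cdk4 that gap lay between RIP-Cre and the Rbp2 knockout. For Ccnd3, Cdk6, Rbl1 and Rbl2 all neighbouring groups overlapped. Over the 5 groups the moderated F test called Ccnd1 (limma adjusted p = 8.32e-05), Ccnd2 (0.00245), Cdk4 (0.00442), Cdk6 (0.0291) and Rb1 (0.00381), with 52% of all genes called. After cyclic loess it called Ccnd1, Ccnd2, Rb1 and Rbl2, with 38.1% of all genes called.

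With all arrays used, the control groups were close to each other for every member. RIP-Cre against wt gave log2 fold changes from -0.20 for Cdk6 to 0.06 for Rbl1, and none of the 8 members and 0% of all genes were called by limma, while 552 of 19938 genes had an unadjusted p under 0.05. A shift of these genes by the transgene alone was not detectable with this number of arrays. Without wt 1, wt 3 and RIP-Cre 3, which leaves a single wt array, Ccnd1 was at -0.58 and Ccnd2 at -0.46 for RIP-Cre against wt.

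One setting removed most of the calls. With the median of each array as a covariate, none of the 8 members was called in the single knockouts and Rb1 alone was called in the double knockout (log2 fold change 0.60, limma adjusted p = 0.0498). The array medians of knockouts and controls overlap only between 7.97 and 7.98, and that fit called 396, 42 and 280 genes in all. Ccnd1 was at -0.97, 1.03 and 0.50 there and did not pass the test, and its difference between the double and the Men1 knockout stayed called (1.47, adjusted p = 0.00101).

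Around these members, 70 of 73 listed G1 and S-phase genes were tested, in 8 lists, and they are given as counts and list medians. All 8 lists are to be read beside the medians of all genes (-0.23, -0.13 and -0.15) and the shares of all genes called. In the Men1, Rbp2 and double knockout these shares were 53.5%, 13.4% and 33.7% in either direction and 15.7%, 6.7% and 13% higher. Lower were 37.8% in the Men1 knockout and 20.6% in the double knockout. After cyclic loess 17.6%, 5.52% and 13.4% of all genes were higher and 18.4%, 3.87% and 12.3% lower. The list of E2F target genes holds genes of DNA replication and also Mki67, Top2a and Cdk1. Of 19, the Men1 knockout had 4 higher and 2 lower, the Rbp2 knockout 1 higher and 1 lower, and the double knockout 8 higher and 1 lower, with list medians of 0.17, -0.14 and 0.31. Pcna, the sliding clamp of DNA polymerase, rose by 0.98 in the Men1 knockout (limma adjusted p = 0.00113) and by 1.03 in the double knockout (adjusted p = 0.00171) and was at 0.45 in the Rbp2 knockout (adjusted p = 0.0775). Rrm1, a subunit of ribonucleotide reductase, rose in all 3 (0.76, 0.44 and 0.56), and Mcm4, part of the replicative helicase, rose in the Men1 knockout and the double knockout (0.48 and 0.56). Orc1, of the origin recognition complex, fell by 0.31 in the Men1 knockout and by 0.42 in the double knockout, and Cdc6 fell by 0.51 in the Rbp2 knockout. Mcm7, another helicase subunit, fell by 0.30 in the Men1 knockout (adjusted p = 0.0292) and stayed called there after cyclic loess (-0.28, adjusted p = 0.0398). After cyclic loess the counts were 8 higher and 1 lower, 1 and 0, and 11 and 0, and Orc1 and Cdc6 were not called.

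Of 7 genes of cyclin E, cyclin A and CDK2, 3 were higher and 1 lower in the Men1 knockout, none was called in the Rbp2 knockout and 2 were higher in the double knockout, with list medians of 0.19, 0.09 and 0.16. After cyclic loess 4, 0 and 3 were higher and none lower. Ccne2, a cyclin E, rose by 0.45 in both (limma adjusted p = 0.00820 and 0.0112), Cks1b rose by 0.58 and 0.66, and Cdc25a, the phosphatase that activates CDK2, rose by 0.97 in the Men1 knockout (adjusted p = 0.0232), where Ccna1 fell by 0.58. Ccna1 was not called after cyclic loess (-0.28, adjusted p = 0.363). Of the CDK-activating kinase, Ccnh rose by 1.43 in the Men1 knockout and by 0.83 in the double knockout (adjusted p = 0.00221 and 0.0359), and Cdk7 and Mnat1 were not called. The medians of these 3 genes were -0.06, 0.02 and 0.07, and Ccnh stayed called in both knockouts after cyclic loess.

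Of 6 CDK inhibitor genes tested, 2 were called in the Men1 knockout, none in the Rbp2 knockout and 1 in the double knockout. Cdkn2c, which codes for p18 and inhibits CDK4 and CDK6, rose by 0.45 in the Men1 knockout (limma adjusted p = 0.0223) and was at 0.23 in the double knockout (adjusted p = 0.211). Cdkn1c, which codes for p57, fell by 0.43 in the Men1 knockout (adjusted p = 0.0127) and by 0.35 in the double knockout (adjusted p = 0.0360), and after cyclic loess it was at -0.20 and -0.19 and was not called (adjusted p = 0.0815 and 0.0930). Cdkn1b, which codes for p27, was at 0.06, 0.13 and -0.02 and was not called as deposited. After cyclic loess it was at -0.18, -0.10 and -0.27 and was called lower in the double knockout (adjusted p = 0.0248). The list medians of -0.24, -0.16 and -0.14 lay close to those of all genes.

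Of 10 E2F and DP genes, 1 was higher and 2 lower in the Men1 knockout, 2 were lower in the Rbp2 knockout and none was called in the double knockout. Tfdp2, a dimer partner of the E2Fs, rose by 0.46 and E2f4, a repressor E2F that pairs with p107 and p130, fell by 0.43 in the Men1 knockout (limma adjusted p = 0.00785 and 0.00851). E2f7 and E2f8, the atypical repressors, fell by 0.51 and 0.43 in the Rbp2 knockout (adjusted p = 0.0267 and 0.0434), and after cyclic loess they were at -0.37 and -0.24 and were not called (adjusted p = 0.0554 and 0.213). The E2F and DP medians were -0.18, -0.10 and 0.02. After cyclic loess 1 was higher and 2 lower in the Men1 knockout, none was called in the Rbp2 knockout, and E2f4 alone was lower in the double knockout (-0.34, adjusted p = 0.0379). Another list held 6 genes of the related DREAM and MuvB complexes, and in DREAM p107 and p130 hold cell cycle genes silent. Of these, 2 were higher and 1 lower in the Men1 knockout, 1 higher in the Rbp2 knockout and 2 higher in the double knockout. Rbbp4, a histone-binding subunit, rose in all 3 (0.63, 0.53 and 0.60), Lin54 rose by 0.47 and 0.43 in the Men1 knockout and the double knockout, and Lin37 fell by 0.59 in the Men1 knockout. The DREAM and MuvB medians were 0.12, -0.09 and -0.12, and the counts were the same after cyclic loess.

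Of 10 genes for turnover of G1 cyclins and inhibitors, 3 were higher and 1 lower in the Men1 knockout, 2 higher in the Rbp2 knockout and 3 higher in the double knockout. Cul4b, a cullin of ubiquitin ligases, rose by 1.32, 0.74 and 1.07 (limma adjusted p = 0.000102, 0.0151 and 0.000749). Gsk3b, the kinase known to mark cyclin D1 for export and degradation, rose by 0.74 in the Men1 knockout and by 0.46 in the double knockout (adjusted p = 0.000310 and 0.00650) and was at 0.20 in the Rbp2 knockout. The turnover medians were -0.06, 0.01 and -0.04. After cyclic loess 2, 1 and 2 were higher and 1 was lower, Ambra1 in the double knockout (-0.34, adjusted p = 0.0269). Of 9 genes listed as inputs to the D-type cyclins, 3 were higher in the Men1 knockout, 2 higher in the Rbp2 knockout, and 3 higher and 1 lower in the double knockout. This list is not sorted by whether a gene raises or lowers D-cyclin transcription. Ctnnb1, which codes for beta-catenin, rose by 0.57, 0.58 and 0.56, Foxo1 rose by 0.44, 0.32 and 0.46, and Stat5b, which acts below the prolactin receptor, rose by 0.47 in the Men1 knockout and 0.33 in the double knockout. Smad3 fell by 0.45 in the double knockout. The medians of these 9 genes were 0.05, -0.075 and 0.325. After cyclic loess 3, 1 and 3 were higher and Smad3 alone was lower, in the double knockout. Foxo1 was then not called in the Rbp2 knockout (0.19, adjusted p = 0.122), nor Stat5b in the double knockout (0.18, adjusted p = 0.187).

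**Figure D4:**
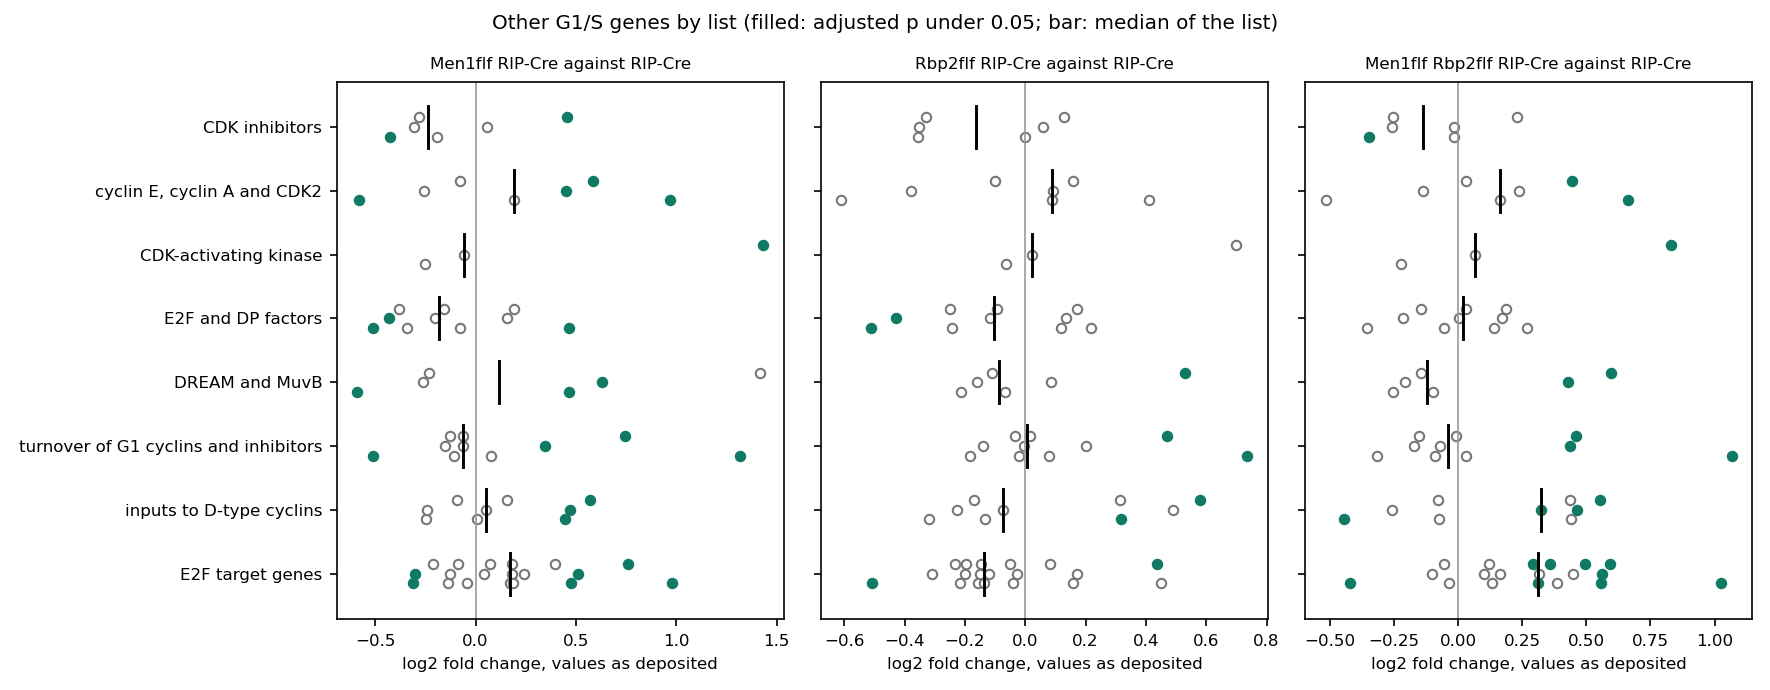
Log2 fold change against RIP-Cre (x axis, as deposited) of the genes of 8 G1 and S-phase lists (rows) in each knockout, filled where the adjusted p is under 0.05, with a bar at the list median. The E2F target genes have 4 genes called higher in the Men1 knockout, 1 in the Rbp2 knockout and 8 in the double knockout. Over all genes 15.7%, 6.7% and 13% were called higher in these knockouts.

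Markers of the cell types that islet preparations can hold moved between the groups too. For comparison, 15.7% of all genes were called higher and 37.8% lower in the Men1 knockout. These shares were 13% and 20.6% in the double knockout, and 13.4% were called in either direction in the Rbp2 knockout. All 4 Schwann cell markers tested were lower in the Men1 knockout and in the double knockout and none was called in the Rbp2 knockout; their mean level per array was 7.84 to 8.31 in RIP-Cre, 7.22 to 7.30 in the Men1 knockout, 7.34 to 7.87 in the Rbp2 knockout and 7.35 to 7.49 in the double knockout. Of 6 duct markers, 4 were lower in the Men1 knockout and 1 in each other knockout, with array means of 8.32 to 8.56 in RIP-Cre and 7.64 to 7.87 in the Men1 knockout. After cyclic loess 2, 0 and 1 duct markers were lower in the Men1, Rbp2 and double knockout. Of 9 endothelial markers, 3 were higher in the Rbp2 knockout, with array means of 9.45 to 9.82 there and 9.25 to 9.53 in RIP-Cre, and 1 was higher and 3 lower in each of the Men1 knockout (9.25 to 9.36) and the double knockout (9.17 to 9.37). Of 9 macrophage markers, 3 were higher and 1 lower in the Men1 knockout, none was called in the Rbp2 knockout and 3 were higher in the double knockout. Their array means were 7.71 to 7.74 in RIP-Cre, 7.76 to 8.31 in wt, 7.86 to 8.13 in the Men1 knockout, 7.68 to 7.82 in the Rbp2 knockout and 7.89 to 8.29 in the double knockout, so the Men1 knockout and the double knockout lay above RIP-Cre and within the range of wt. After cyclic loess 5, 0 and 5 macrophage markers were higher and none lower, and of the endothelial markers 2 were lower in the Men1 knockout, 2 higher in the Rbp2 knockout and 3 lower in the double knockout. Of 10 beta cell markers, 7 were higher in the Men1 knockout, 3 in the Rbp2 knockout and 7 in the double knockout, but after cyclic loess 6, 1 and 3 were higher and 3 were lower in the double knockout. Of 6 markers of the other endocrine cells, 3 were lower in the Men1 knockout and 3 in the double knockout. After cyclic loess 5 of them were lower in the Men1 knockout and 4 in the double knockout. Acinar markers varied widely within groups, with array means of 7.91 to 10.42 in RIP-Cre. The part of these cell types in the values of the 8 members was not tested.

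The genes whose levels followed each member most closely over the 17 arrays are given by Pearson r as a description, since all arrays share the same 5 genotypes. Ccnd1 had Kcnk16 (0.97), which codes for the potassium channel TALK-1 of beta cells, Dapl1 (0.95) and Tspan33 (0.94), and after cyclic loess Kcnk16 (0.97), Cldn4 (0.96) and Dapl1 (0.96). Kcnk16 had group means of 10.47 in wt, 10.39 in RIP-Cre, 9.37 in the Men1 knockout, 11.55 in the Rbp2 knockout and 11.22 in the double knockout, the same order of groups as for Ccnd1. Cldn4, a tight junction claudin, had means of 8.99, 9.07, 7.79, 9.98 and 9.59 in the same groups. In all, 19 genes followed Ccnd1 with an r over 0.9 as deposited and 16 after cyclic loess.

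Ccnd2 had Aldoa (0.98), which codes for the glycolytic enzyme aldolase A, Ergic3 (0.97) and Bsg (0.97), and 316 genes had an r over 0.9 with it, but only 1, Aldoa (0.94), after cyclic loess. For Cdk4 that number went from 215 to 0, and its nearest gene on the deposited scale, Slc25a44 (0.98), had an r of 0.37 after cyclic loess. The nearest gene to Rb1 was Elmod1 at 0.89 on both scales, apart from B3gnt2 (0.91) after cyclic loess. Ccnd3 had Nmt1 (0.92), Cdk6 had Drd3 (0.94) and Rbl2 had Alkbh8 (0.88). Rbl1 had Siae (0.95), Zdhhc6 (0.95) and Psma4 (0.95). Over the 16 arrays without double knockout replicate 4 their r was lower, at 0.75, 0.66 and 0.65.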

How the data were processed

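Total RNA of islets was labelled with biotin and hybridised to 17 arrays, per the labels' protocols. The authors deposited a log2 intensity for every probe set. How they corrected and normalized it, and with which software, is not given in the sources used here. Precision is limited by the number of arrays. Genes were named through the platform's gene table, with symbols updated to RefSeq (GRCm38.p6). Of 35512 probe sets, 21789 named 1 gene, 1621 several, and 12102 were not in the table. Each gene was read from its probe set with the highest mean, which gave 19938 genes.

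One model of the 5 group means was fitted over the 17 arrays in limma 3.58.1 (lmFit, eBayes) in R 4.3.3, and p-values were adjusted by Benjamini-Hochberg over all genes of each of 7 comparisons. Single ratios were tested exactly in Python 3.11.15 with scipy 1.17.1. The fit was tested on simulated data. Named are the 8 members, Men1 and Kdm5a, the top 3 and bottom 3 genes of each pathway list by moderated t, and the 3 genes nearest to each member by r. Alternatives were cyclic loess and quantile normalization, the array median as a covariate, the repeat number as a block, pooled controls, dropping genes below the 25th percentile by mean, fitting every single-gene probe set, and leaving out arrays. No sign of pairing by repeat number was seen. The r of deviations had a median of 0.011 over 31 same-numbered pairs (-0.30 to 0.45). Over 84 differently numbered pairs it was -0.005 (-0.61 to 0.48). Members and lists were chosen with earlier results of these data known.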

Additional observations from a re-analysis of the deposited data

Results flagged for a closer look

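Rbl1 in double knockout replicate 4 was at a log2 level of 9.48, while the other 3 arrays of that group lay between 8.19 and 8.25; the gap took 0.953 of the group's range, above the 95% critical value of Dixon's test for 4 arrays. It was the only such value among 16 member and group combinations tested, and chance marks about 1 in 20. On the same array Siae was at 9.55 (7.69 to 8.36 on the other 16 arrays), Zdhhc6 at 9.94 (8.34 to 8.76), Psma4 at 10.85 (8.26 to 8.89) and Rtca at 9.67 (8.09 to 8.62). That array stood this far above its group for 92 of 19938 genes (0.461%), a share inside the range of 0.286% to 0.988% over the 8 arrays of the 2 groups with 4 arrays. Rbl1 was not called in the double knockout with this array (log2 fold change 0.44) or without it (0.13).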

How the results depend on the processing

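The 14 called values of single members were refitted 111 times under the alternatives other than leaving out 1 array: 86 stayed called with the same sign, 22 were not called and 3 changed sign. Leaving out each array in turn kept 207 of 238. The cause of the changes below was not tested.

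Members called: cyclic loess gave 3 in the Men1 knockout and 3 in the double knockout against RIP-Cre, and quantile normalization 3 in the Men1 knockout and 3 in the F test. The array median as a covariate gave 0 in the Men1 knockout, 0 in the Rbp2 knockout, 1 in the double knockout and 1 in the F test. Pooled wt and RIP-Cre controls gave 6 in the Men1 knockout, 5 in the Rbp2 knockout, 6 in the double knockout and 1 interaction (Ccnd2, -0.64). Newly called against the pooled controls were Cdk6 in the Men1 knockout, Ccnd3 and Cdk4 in the Rbp2 knockout and Rbl1 in the double knockout. Cdk6 in the Men1 knockout stayed uncalled in 12 of the 17 fits with 1 array left out. Without wt 1, wt 3 and RIP-Cre 3 there were 3 in the Men1 knockout and 3 in the F test. The replicate block gave 1 called interaction (Ccnd2, -0.67, limma adjusted p = 0.0463), ended the Rbl2 calls in the Men1 knockout (adjusted p = 0.0670) and the double knockout (0.0550), and changed no other call; the numbers are shared labels only. With 1 array left out, members called ran from 2 to 6 in the Men1 knockout, 1 to 4 in the Rbp2 knockout, 3 to 5 in the double knockout and 0 to 1 for the interaction. The lowest counts in both single knockouts came without RIP-Cre replicate 3, where the Rbp2 knockout had 223 genes called in all.

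Signs changed for these values. Under cyclic loess, Cdk4 was -0.0040 in the Men1 knockout and -0.016 in the Rbp2 knockout, Cdk6 was 0.025 in the Men1 knockout and 0.13 in the double knockout, Ccnd3 was -0.0068 for RIP-Cre against wt, Rbl2 was -0.0019 between the double and the Men1 knockout, and the interactions of Cdk4, Cdk6 and Rbl1 were 0.10, -0.088 and -0.050. Under quantile normalization, Cdk4 was -0.0023 in the Men1 knockout and -0.013 in the Rbp2 knockout, Cdk6 was 0.084 in the double knockout, and the same interactions were 0.10, -0.034 and -0.055. With the array median as a covariate, Ccnd3, Rbl1 and Rbl2 were -0.049, -0.16 and -0.029 in the Men1 knockout, Rbl1 and Rbl2 were -0.037 and -0.067 in the Rbp2 knockout, Cdk6 was 0.12 in the double knockout, and the interactions of Cdk4, Cdk6 and Rbl2 were 0.063, -0.054 and 0.18. Cdk6 in the Rbp2 knockout was -0.013 with the replicate block and -0.088 with pooled controls. Without wt 1, wt 3 and RIP-Cre 3, Ccnd3 and Cdk4 were -0.055 and -0.040 for RIP-Cre against wt.

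With 1 array left out, RIP-Cre against wt ran from -0.26 to 0.072 for Ccnd1, -0.26 to 0.15 for Ccnd2, -0.017 to 0.048 for Ccnd3, -0.037 to 0.10 for Cdk4, -0.17 to 0.057 for Rb1 and -0.023 to 0.16 for Rbl1. Ccnd3 in the Men1 knockout ran from -0.018 to 0.10 and Cdk6 in the Rbp2 knockout from -0.048 to 0.070. Between the double and the Men1 knockout Ccnd2 ran from -0.010 to 0.10, Rb1 from 0 to 0.10, Rbl1 from -0.057 to 0.37 and Rbl2 from -0.018 to 0.063. Rbl1 between the double and the Rbp2 knockout ran from -0.053 to 0.38, and the interactions of Ccnd1 and Rbl1 from -0.066 to 0.28 and from -0.24 to 0.19. None of these values was called.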
